A study of Mus musculus with 8 samples.

Results

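A set of 7 genes of the elastic fibre are described here over the 4 groups of an array study of newborn mouse aorta, namely elastin (Eln), fibrillin 2 (Fbn2), the microfibril-associated genes Mfap2, Mfap4 and Mfap5, and the EMILIN genes Emilin1 and Emilin2. They were chosen by name from 8 symbols looked up in the platform's gene table, which named 1 probe set for each of 7, none of them shared with another gene. Fbn1 (fibrillin 1) was the eighth symbol and was not analysed here. All 7 passed the filter on dim genes and were among the 16638 genes tested.

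The groups were KO ascending, WT ascending, KO descending and WT descending, where KO stands for the lysyl oxidase (LOX) knockout and WT for the wild type, both at p0 and on an albino C57BL/6J background. Each group had 2 arrays, and each array measured total RNA pooled from 8 pups of 1 genotype, so n = 2 pools in every group. The ascending piece ran from the aortic valve to the ductus, and the descending piece from the vena cava to the diaphragm. The labels do not describe how the Lox allele was made. Every value is on the log2 scale of the deposited signals, where a difference of 1 is a 2-fold change.

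Elastic fibres let the wall of the aorta stretch and recoil with each heartbeat. Smooth muscle cells secrete tropoelastin, the soluble product of Eln, onto a scaffold of microfibrils built from fibrillins and coated by microfibril-associated proteins and EMILINs, and lysyl oxidase then oxidises lysines of tropoelastin so that the molecules join into an insoluble polymer. The fibres of the aorta are laid down around birth and in early life, which is the age sampled here.

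Lox, the targeted gene, read 8.87 and 8.74 in KO ascending pools and 8.56 and 8.51 in KO descending pools, against 11.47 and 11.60 in WT ascending and 11.41 and 11.24 in WT descending pools. Its KO minus WT difference was -2.73 (SE 0.11, adjusted p = 5.34e-05, limma) in ascending and -2.80 (SE 0.11, adjusted p = 4.42e-05) in descending aorta, as the labels have it. The sources used here do not say which exons the knockout lacks or which exons these probes read. Arrays of 1 group had Pearson correlations of 0.988 to 0.992 over the genes tested, which are not independent replicates. All 6 smooth muscle markers were present, and their mean signal per array was 10.80 to 10.87 in KO ascending, 10.83 to 10.86 in WT ascending, 10.78 to 10.87 in KO descending and 10.75 to 10.78 in WT descending pools. The 7 fibroblast markers, of which Dcn is also in the list of assembly partners below, averaged 9.83 to 9.98 in KO ascending pools against 10.08 to 10.09 in WT ascending pools, and 9.55 to 9.59 in KO descending pools against 9.73 to 9.78 in WT descending pools. Lung markers stood at 6.44 to 6.94 in WT descending pools, against 4.66 to 4.69 in KO descending pools, and liver markers at 7.71 to 8.92 in KO descending pools against 5.88 to 6.41 in WT descending pools. In ascending aorta liver markers stood at 7.26 to 7.41 in KO pools against 6.78 to 6.84 in WT pools. The 3 nerve markers measured, of 6, averaged 5.09 to 5.33 in KO ascending pools against 6.35 to 6.48 in KO descending pools, and 4.94 to 5.34 in WT ascending pools against 6.15 to 6.51 in WT descending pools. Thymus markers averaged 5.77 and 6.87 on the arrays of WT ascending aorta. Fat markers averaged 6.69 to 6.75 in KO ascending pools against 7.21 to 8.004 in WT ascending pools, and 7.54 to 7.90 in KO descending pools against 8.56 to 8.96 in WT descending pools. Heart muscle markers averaged 8.18 and 9.23 on the arrays of KO ascending aorta, against 8.62 to 8.71 in WT ascending pools. In descending aorta they averaged 8.64 to 9.11 in KO pools against 9.07 to 9.46 in WT pools. The part of these tissues in the results below was not tested, beyond leaving out each array in turn.

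The data show small differences in this gene group, with elastin itself among those that did not pass the test. Over both segments together Emilin1 rose in KO aorta by 0.38 (SE 0.08, adjusted p = 0.0229, limma), a 1.30-fold difference. In the descending aorta Fbn2 rose by 0.64 (SE 0.13, adjusted p = 0.0479, limma), a 1.56-fold difference. Each was the only 1 of the 7 genes called in its comparison, where 11.4% and 2.28% of all genes were called. Neither call was kept under every alternative setting. The other 5 genes differed between KO and WT by at most 0.27 on the log2 scale in either segment and none of them passed. Between the ascending and descending aorta no gene of the group passed in either genotype. In bulk tissue, a change in the number of cells that make an RNA and a change in RNA per cell cannot be told apart.

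**Figure D1:**
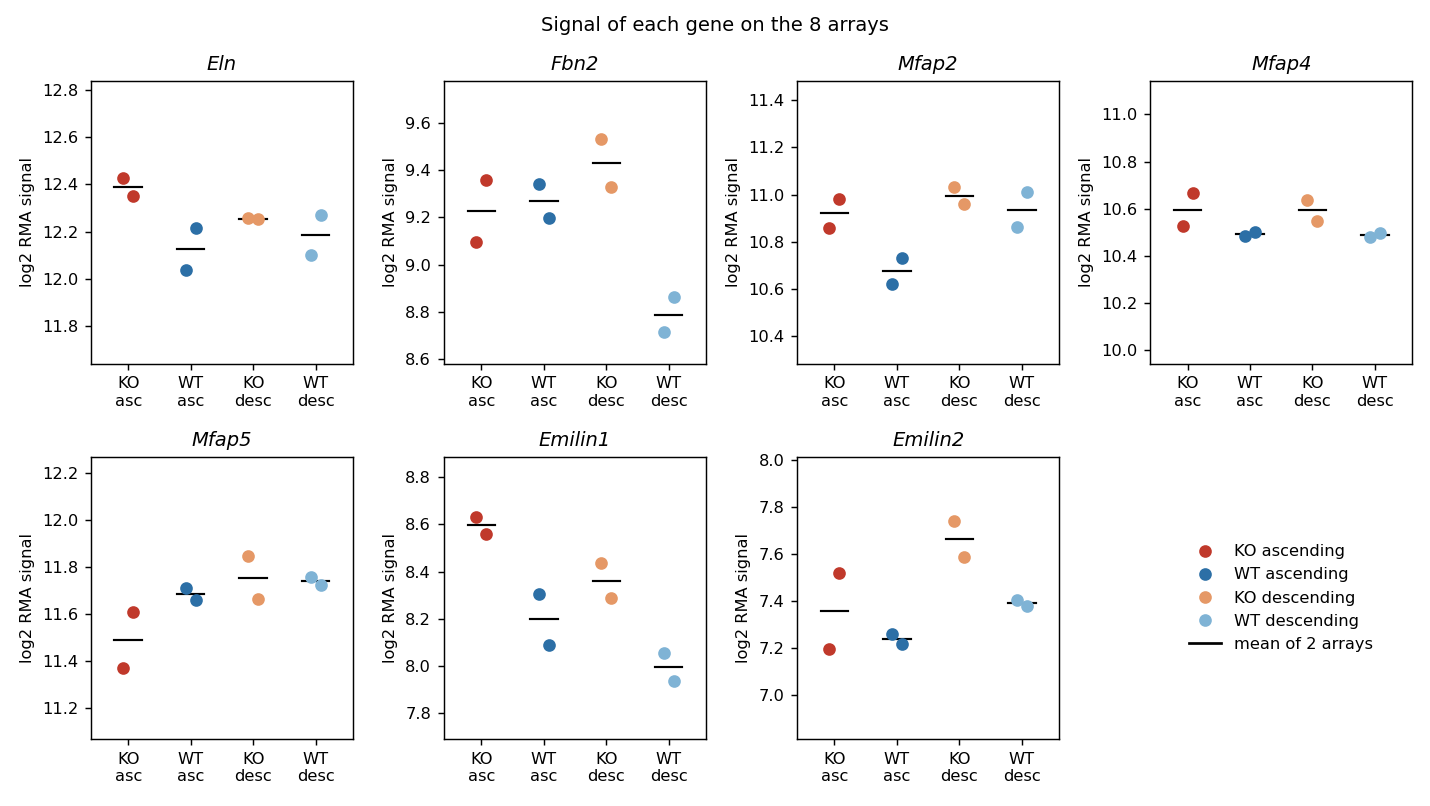
Log2 RMA signal (y axis, each panel spanning the same width) of the 7 genes on each of the 8 arrays, grouped on the x axis as KO ascending, WT ascending, KO descending and WT descending; points are arrays and bars are means of 2. Emilin1 lies higher in KO than WT within each segment, and Fbn2 is lowest in WT descending aorta, at 8.71 and 8.86.

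Eln encodes tropoelastin, the monomer of elastin. It read 12.43 and 12.35 in KO ascending pools, against 12.04 and 12.21 in WT ascending pools. In the descending aorta it read 12.26 and 12.25 in KO pools, against 12.10 and 12.27 in WT pools. The ascending arrays did not overlap, KO being higher, while the descending WT pools lay on both sides of the KO pools. The difference was 0.26 (SE 0.11, 95% interval 0.01 to 0.52, adjusted p = 0.249, limma) in ascending and 0.07 (SE 0.11, 95% interval -0.19 to 0.32, adjusted p = 0.795) in descending aorta. Averaged over segments it was 0.17 (SE 0.08, adjusted p = 0.218), a 1.12-fold difference that did not pass. Under 1 alternative, a trended robust prior in limma, it did pass (adjusted p = 0.045). The 8 arrays spanned 0.39 for this gene, and its groups in falling order were KO ascending (12.39), KO descending (12.26), WT descending (12.19) and WT ascending (12.13). Only the step between KO ascending and KO descending separated neighbouring groups without overlap.

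Fbn2 encodes fibrillin 2, a microfibril protein best known from embryonic and newborn tissue. Its signal was 9.10 and 9.36 in KO ascending pools, against 9.34 and 9.20 in WT ascending pools. In the descending aorta it was 9.53 and 9.33 in KO pools, against 8.71 and 8.86 in WT pools. The ascending groups overlapped, whereas both descending KO pools lay above both descending WT pools. Fbn2 rose by 0.64 (SE 0.13, 95% interval 0.34 to 0.95, adjusted p = 0.0479, limma) in the descending aorta and differed by -0.04 (SE 0.13, 95% interval -0.34 to 0.26, adjusted p = 0.902) in the ascending aorta. The rise sat just inside the threshold. It kept its size, between 0.54 and 0.75, under 18 alternative settings but its call under 5 of them, and the call ended when any 1 of the 8 arrays was left out (adjusted p = 0.0556 to 0.244). The WT descending pools, where Fbn2 was lowest, were also those with the highest lung and fat markers, given above, and the part of those tissues in the Fbn2 values was not tested.

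Fbn2 was also the gene of the group whose genotype difference varied most between segments. The interaction, the KO minus WT difference in ascending minus that in descending aorta, was -0.69 (SE 0.19, 95% interval -1.11 to -0.26), with an unadjusted p of 0.00576 and an adjusted p of 0.775 in limma. It did not pass, and neither did any of the 16638 genes in that comparison (0 called, 0%). At an unadjusted p under 0.05 there were 932 genes, or 5.6% of those tested, and a trended robust prior called 1. In WT mice Fbn2 was higher in ascending than descending aorta by 0.48 (SE 0.13, adjusted p = 0.155) without overlap of arrays. In KO mice the difference ran the other way, at -0.20 (SE 0.13, adjusted p = 0.644), with overlap. The WT descending mean of 8.79 thus stood apart from KO descending (9.43), WT ascending (9.27) and KO ascending (9.23), which overlapped one another.

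Mfap2 and Mfap5 encode MAGP-1 and MAGP-2, small glycoproteins that bind fibrillins. Mfap2 read 10.86 and 10.98 in KO ascending pools, against 10.62 and 10.73 in WT ascending pools. In the descending aorta its values were 11.03 and 10.96 in KO pools, against 10.86 and 11.01 in WT pools. The ascending arrays were apart and the descending ones overlapped. Mfap2 differed by 0.25 (SE 0.11, adjusted p = 0.269) in ascending and 0.06 (SE 0.11, adjusted p = 0.82) in descending aorta. WT ascending aorta, at a mean of 10.68, was the lowest group, and differed from WT descending, at 10.94, by -0.26 (SE 0.11, adjusted p = 0.381), with no overlap between these arrays.

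Mfap5 read 11.37 and 11.61 in KO ascending pools, against 11.71 and 11.66 in WT ascending pools. In descending aorta it read 11.84 and 11.66 in KO pools, against 11.76 and 11.72 in WT pools. The ascending KO pools were both below the WT pools, but they differed from each other by more than the higher of them differed from WT. The difference was -0.20 (SE 0.12, adjusted p = 0.417) in ascending and 0.01 (SE 0.12, adjusted p = 0.965) in descending aorta. Mfap2 and Mfap5 thus had differences of opposite sign in the ascending aorta, neither of which passed. The mean of the 7 fibroblast markers, given above, was also lower in KO ascending pools, with Pdgfra, Dpt and Dcn lower in both pools, Tcf21 higher in both and Lum, Pi16 and Dpep1 overlapping WT. Their part in the Mfap5 values was not tested.

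Mfap4 encodes a fibrinogen-domain glycoprotein of the extracellular matrix that binds elastic fibre proteins. It varied least, with all 8 arrays inside 0.19. Its signal was 10.52 and 10.66 in KO ascending pools, against 10.48 and 10.50 in WT ascending pools. In descending aorta it was 10.64 and 10.55 in KO pools, against 10.48 and 10.50 in WT pools. All 4 KO pools lay above all 4 WT pools. The difference was 0.10 (SE 0.10, adjusted p = 0.632) in ascending and 0.11 (SE 0.10, adjusted p = 0.632) in descending aorta, and 0.10 (SE 0.07, adjusted p = 0.395) averaged over segments. Mfap4 was the only 1 of the 7 whose KO and WT arrays were fully apart over both segments, which held for 17% of all genes tested.

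The EMILINs are glycoproteins with an EMI domain, and EMILIN-1 lies where elastin meets the microfibrils. The promoter windows of both genes in RefSeq (GRCm38.p6), from 250 bases before a transcript start to 50 after it, are shown because Emilin1 is the gene called over both segments and Emilin2 is its relative that was not called. The table held such windows for 4 of the 8 symbols, namely Fbn1, Mfap2, Emilin1 and Emilin2. Capitals mark plain-letter matches, on either strand, to 6 motifs, which were the TATA-type box spelled TATAAA, the GC-type box spelled GGGCGG, the E-box spelled CAGCTG (the same on both strands), the Smad element spelled CAGAC, the AP-1 site spelled TGACTCA and the NF-Y box spelled CCAAT; a match on the other strand is capitalised as it reads on this one, and no matches overlap. The first lies at chr5:30913536-30913835 on the plus strand, and those of Emilin2 at chr17:71311507-71311806 and chr17:71310962-71311261 on the minus strand.
Emilin1: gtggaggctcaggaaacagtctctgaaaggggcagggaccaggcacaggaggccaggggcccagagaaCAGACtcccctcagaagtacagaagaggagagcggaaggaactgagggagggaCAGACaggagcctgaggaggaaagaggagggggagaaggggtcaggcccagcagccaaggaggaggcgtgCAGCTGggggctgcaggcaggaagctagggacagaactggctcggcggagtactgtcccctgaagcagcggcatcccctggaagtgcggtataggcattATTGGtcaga
Emilin2, first start: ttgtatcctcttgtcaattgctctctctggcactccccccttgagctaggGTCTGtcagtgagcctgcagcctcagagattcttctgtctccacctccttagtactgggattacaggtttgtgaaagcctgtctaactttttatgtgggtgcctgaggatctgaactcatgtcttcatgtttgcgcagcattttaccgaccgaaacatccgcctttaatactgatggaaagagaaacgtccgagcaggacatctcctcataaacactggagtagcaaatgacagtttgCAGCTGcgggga
Emilin2, second start: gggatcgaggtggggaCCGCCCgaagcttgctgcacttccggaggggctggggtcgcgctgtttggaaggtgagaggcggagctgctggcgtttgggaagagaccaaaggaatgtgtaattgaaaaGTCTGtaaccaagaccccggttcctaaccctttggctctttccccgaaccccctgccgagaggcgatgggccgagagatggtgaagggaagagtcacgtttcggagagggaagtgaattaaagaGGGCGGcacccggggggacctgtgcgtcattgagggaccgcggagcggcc
The Emilin1 window held CAGAC at 2 places, 182 and 129 bases before the start, CAGCTG at 1 place 59 bases before it, and CCAAT on the other strand after it. Of 32851 windows in the table, 49.6% held CAGAC, 16.3% CAGCTG and 37.4% CCAAT. Each Emilin2 window held 1 match to CAGAC, the first also 1 to CAGCTG and the second 2 to GGGCGG, a motif present in 35.7% of windows. TATAAA (13.6% of windows) and TGACTCA (5.2%) were not in these windows. A match is a string of letters and not a binding site.

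Emilin1 read 8.63 and 8.56 in KO ascending pools, against 8.30 and 8.09 in WT ascending pools. In descending aorta it read 8.44 and 8.29 in KO pools, against 8.05 and 7.94 in WT pools. KO pools were above WT pools in each segment with no overlap, and the lowest KO descending pool lay at about the level of the highest WT ascending pool. The difference was 0.40 (SE 0.12, 95% interval 0.13 to 0.67, adjusted p = 0.112) in ascending and 0.37 (SE 0.12, 95% interval 0.10 to 0.63, adjusted p = 0.146) in descending aorta, neither past the threshold alone. Averaged over segments it was 0.38 (SE 0.08, 95% interval 0.19 to 0.57, adjusted p = 0.0229, limma), the only call of the group in that comparison. The interaction for Emilin1 was 0.03 (SE 0.17, 95% interval -0.34 to 0.41, adjusted p = 0.992). The averaged call was kept under 10 of 17 alternatives, all with differences between 0.33 and 0.44. It held without WT ascending replicate 1 and without KO descending replicate 2, and ended without each of the other 6 arrays, at adjusted p up to 0.0736. Endothelial markers averaged 8.05 on both KO ascending arrays against 8.42 to 8.59 in WT ascending pools, and 8.36 to 8.44 in KO descending pools against 8.70 to 8.79 in WT descending pools, and their part in the Emilin1 values was not tested.

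Emilin2 read 7.20 and 7.52 in KO ascending pools, against 7.26 and 7.22 in WT ascending pools. In descending aorta it read 7.74 and 7.59 in KO pools, against 7.41 and 7.38 in WT pools. Its descending arrays were apart, KO being higher, and its ascending KO pools lay on both sides of the WT pools. The difference was 0.12 (SE 0.13, adjusted p = 0.67) in ascending and 0.27 (SE 0.13, adjusted p = 0.297) in descending aorta. Both EMILINs thus had higher means in KO aorta, but they ordered the segments in opposite ways. Emilin1 was higher in ascending than descending aorta by 0.22 (SE 0.08, adjusted p = 0.232) averaged over genotypes, and Emilin2 differed by -0.23 (SE 0.09, adjusted p = 0.255). Neither segment difference passed.

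Read as a group, KO against WT in the ascending aorta gave 0 of 7 genes called by limma, where 2.73% of all genes were called. At an unadjusted p under 0.05 there were 2 (Eln and Emilin1), where 19.1% of all genes reached that level, and a trended robust prior called 1, Emilin1. The arrays did not overlap for 5 of the 7, against 49.5% of all genes, and Mfap5 was the one of them that was lower in KO. The median difference was 0.12, against 0.01 over all genes. In the descending aorta 1 of 7 was called, Fbn2, higher in KO, where 1.46% of all genes rose and 2.28% were called in either direction. All 7 descending differences were above 0, where 49.0% of all genes were, with a median of 0.11 against -0.01 over all genes. Those of Eln, Mfap2 and Mfap5 were 0.07, 0.06 and 0.01, and fell to -0.02, -0.02 and -0.08 under some alternative. In the ascending aorta 5 of 7 differences were above 0, against 52.1% of all genes. Averaged over segments 6 of 7 were, against 50.9%. The descending arrays were apart for 4 of the 7, against 51.1% of genes. Averaged over segments 1 of 7 rose, Emilin1, where 6.21% of all genes rose and 11.4% were called, and the median was 0.17 against 0.00 over all genes. The difference in each segment comes from its own arrays, and the averaged difference uses all 8. The SEs and p-values of both segments come from 1 fit of all 8 arrays, so the segments are not independent tests.

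**Figure D2:**
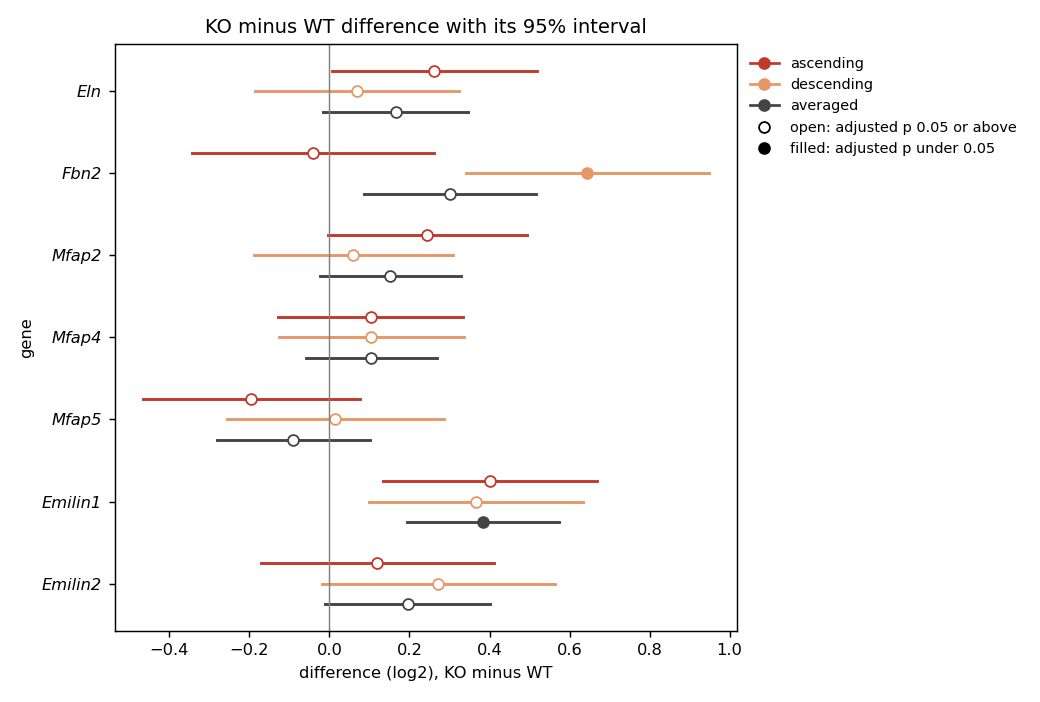
KO minus WT difference on the log2 scale (x axis) for each gene (y axis) in ascending aorta, in descending aorta and averaged, with 95% intervals from limma; filled points passed at an adjusted p under 0.05. Fbn2 in descending aorta (0.64) and Emilin1 averaged (0.38) are the filled points.

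Ascending against descending aorta asked whether the group differs along the vessel. In KO mice 0 of 7 genes were called by limma, where 1.48% of all genes were. At an unadjusted p under 0.05 there was 1, Emilin2, where 12.1% of all genes reached that level. KO ascending and descending arrays were apart for 4 of the 7, against 41% of all genes. In WT mice 0 of 7 were called, also against 1.48%. There were 2 at an unadjusted p under 0.05, Fbn2 and Mfap2, against 12.3% of all genes. Fbn2 was called with a trended robust prior (adjusted p = 0.0382). WT arrays were apart for 5 of the 7, against 42.4% of genes. Averaged over genotypes 0 of 7 were called against 4.07%. Emilin1 and Emilin2 had an unadjusted p under 0.05, as did 15.7% of all genes. Eln differed between segments by 0.13 (SE 0.11, adjusted p = 0.745) in KO and by -0.06 (SE 0.11, adjusted p = 0.901) in WT mice. The 95% interval of the averaged Eln difference ran from -0.14 to 0.22.

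**Figure D3:**
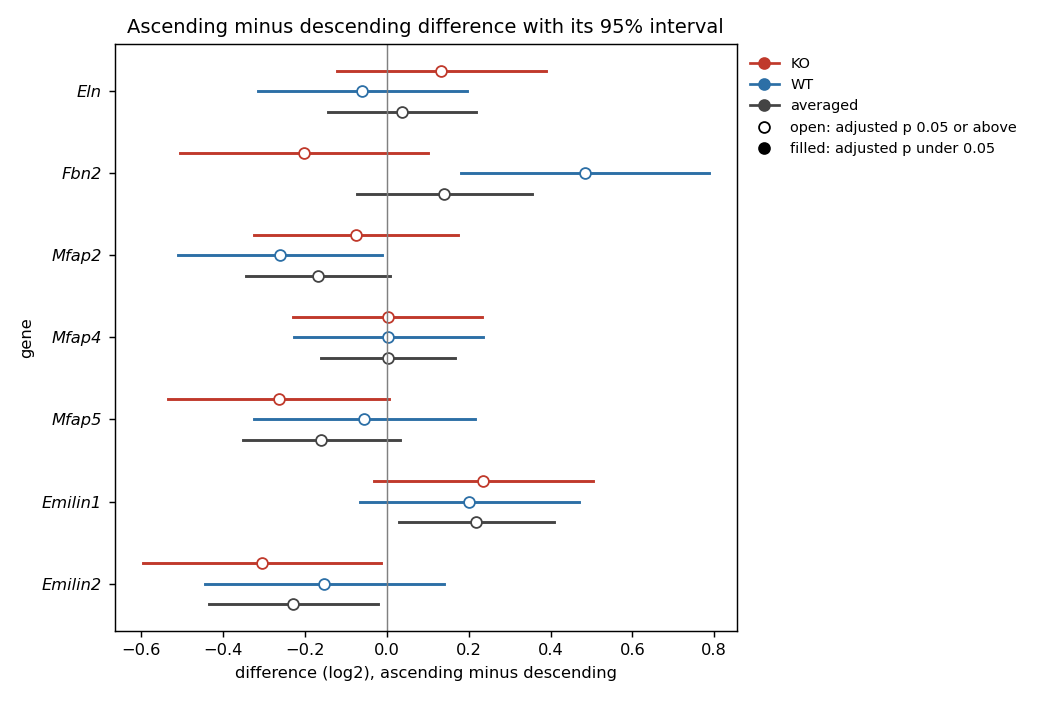
Ascending minus descending difference on the log2 scale (x axis) for each gene (y axis) in KO, in WT and averaged over genotypes, with 95% intervals; every point is open because none passed at an adjusted p under 0.05. Fbn2 lies at 0.48 in WT and at -0.20 in KO aorta, and Mfap4 lies at 0.00 in both.

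The 7 genes did not move as 1 block across the 8 arrays. Among their 21 pairs the Pearson correlation of log2 signals ran from -0.64, between Eln and Mfap5, to 0.73, between Mfap2 and Emilin2. Eln correlated at 0.58 with Mfap2, 0.55 with Emilin1 and 0.14 with Fbn2. Emilin1 and Emilin2 correlated at 0.16. These values describe 8 arrays from 4 groups, so they mix group differences with the spread between pools.

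The genes most like the called ones over the same 8 arrays were found by their Pearson correlation, so their shared pattern follows from how they were picked. For Emilin1 they were Fbln5 (0.99), Lyar (0.98) and Tmem108 (0.98). Fbln5 spanned a narrow range, from 12.28 to 12.49, while Tmem108 read 8.06 and 7.76 in KO ascending and 7.55 and 7.16 in KO descending pools, against 6.62 and 6.24 in WT ascending and 6.10 and 5.83 in WT descending pools. For Fbn2 they were B4galt6 (0.98), Adgrl1 (0.97) and Specc1l (0.97), each lowest in WT descending pools. B4galt6 read 7.53 and 7.71 there, and between 7.82 and 8.06 on the other 6 arrays.

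**Figure D4:**
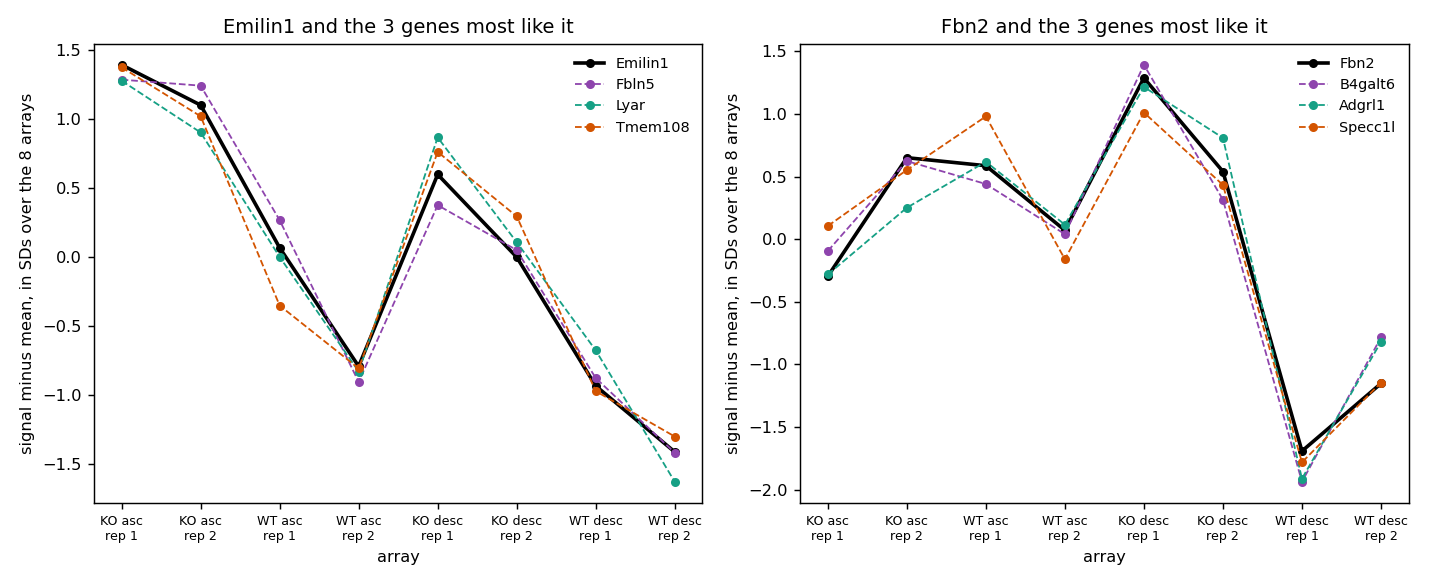
Signal of Emilin1 (left) and Fbn2 (right) with the 3 genes most like each, on the 8 arrays (x axis), as the signal minus its mean in SDs over the 8 arrays (y axis). Emilin1 and its 3 neighbours peak in KO ascending pools, and Fbn2 and its 3 neighbours dip in WT descending pools.

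Proteins that help to assemble elastic fibres were looked at from a list of 24, of which 21 were tested. Averaged over segments 4 were higher in KO aorta, 2 lower and 15 not called, where 6.21% of all genes were higher and 5.22% lower, with a median of 0.06 against 0.00 over all genes. Ltbp2, which binds fibrillin, read 10.22 and 10.18 in KO ascending and 9.99 and 9.95 in KO descending pools, against 9.68 and 9.68 in WT ascending and 9.30 and 9.37 in WT descending pools. It rose by 0.57 (SE 0.07, adjusted p = 0.00295). Vcan, the large proteoglycan versican, read 10.57 and 10.74 in KO ascending and 10.41 and 10.43 in KO descending pools, against 11.19 and 11.18 in WT ascending and 10.96 and 10.93 in WT descending pools. It fell by 0.53 (SE 0.07, adjusted p = 0.00507). Ltbp2 and Vcan kept these averaged calls under every alternative run.

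Relatives of the ADAMTS proteases that lack the catalytic domain, some of which bind fibrillin, went both ways. Adamtsl5 rose by 0.30 (SE 0.07, adjusted p = 0.027), Adamtsl3 by 0.44 (SE 0.12, adjusted p = 0.0464) and Adamtsl2 by 0.47 (SE 0.12, adjusted p = 0.0379), the last named after its values were seen. Thsd4, also known as Adamtsl6, fell by 0.32 (SE 0.07, adjusted p = 0.0265). The calls of Adamtsl5 and Thsd4 ended when any 1 array was left out (adjusted p up to 0.0953). Adamtsl3 kept its call without KO ascending replicate 1 and without KO descending replicate 2, and Adamtsl2 without WT descending replicate 2, and both lost it without any other array, with adjusted p up to 0.138 and 0.111. Efemp1, fibulin-3, was called by segment and not by genotype (-0.04, adjusted p = 0.834). It read 9.12 and 9.25 in KO ascending pools against 7.98 and 7.91 in KO descending pools, and 9.56 and 9.25 in WT ascending pools against 7.68 and 7.94 in WT descending pools. It was higher in ascending aorta by 1.42 (SE 0.10, adjusted p = 0.000259) averaged over genotypes. In the same comparison Adamtsl3 was lower in ascending aorta, at -0.73 (SE 0.12, adjusted p = 0.0107), and Adamtsl5 and Thsd4 were higher, by 0.39 (SE 0.07, adjusted p = 0.0174) and 0.33 (SE 0.07, adjusted p = 0.0414). The mean of the nerve markers given above was also lower in ascending aorta, in both genotypes. Th and Dbh were lower there in both, whereas Sox10 was higher there in WT mice and overlapped in KO mice. The part of nerve markers in the segment differences of Efemp1, Adamtsl3 and the genes below was not tested. Between segments, Adamtsl5 kept its call only without WT descending replicate 1 (adjusted p up to 0.0707) and Thsd4 lost it without any 1 array (adjusted p up to 0.137).

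Of 5 crosslinking enzymes tested, 2 rose averaged over segments, 1 fell (Lox itself) and 2 were not called, where 6.21% of all genes were higher and 5.22% lower. Loxl3, a lysyl oxidase relative, rose by 0.41 (SE 0.07, adjusted p = 0.00989). Tgm2, a transglutaminase, rose by 0.47 (SE 0.10, adjusted p = 0.0219). By segment, Tgm2 rose by 0.83 (SE 0.14, adjusted p = 0.0265) in ascending aorta and differed by 0.12 (SE 0.14, adjusted p = 0.707) in descending aorta, and the interaction of 0.71 (SE 0.20, adjusted p = 0.775) did not pass. The averaged call of Tgm2 ended without WT ascending replicate 1, either WT descending array, KO ascending replicate 2 or KO descending replicate 1. Its averaged difference stayed between 0.39 and 0.56. The ascending call ended without any WT array or KO ascending replicate 2, with differences of 0.65 to 1.00. Loxl1, the relative linked to elastin upkeep, differed by 0.17 (adjusted p = 0.232).

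Integrins that bind fibrillin or other microfibril ligands, and the TGF-beta ligands that microfibrils hold in latent form, made up a list of 13. Averaged over segments 4 of the 12 tested were higher in KO aorta, 0 lower and 8 not called, where 6.21% of all genes were higher and 5.22% lower, with a median of 0.18 against 0.00 over all genes. Itga4 rose by 1.13 (SE 0.09, adjusted p = 0.000686) and Itgb3 by 0.58 (SE 0.08, adjusted p = 0.00445), and both kept the call under every alternative. Tgfb3, a TGF-beta ligand, rose by 0.53 (SE 0.10, adjusted p = 0.0135), and Itgb5 by 0.37 (SE 0.09, adjusted p = 0.0356). The call of Itgb5 held without WT descending replicate 1 and ended without any other array (adjusted p up to 0.105). Itgb8 was higher in ascending than descending aorta by 0.80 (SE 0.10, adjusted p = 0.00439), and Itga4 by 0.40 (SE 0.09, adjusted p = 0.0497), a call of Itga4 that held only without WT descending replicate 2 (adjusted p up to 0.147). The segment difference of Itga4 was 0.11 (SE 0.13, adjusted p = 0.848) in KO, with overlapping arrays, and 0.69 (SE 0.13, adjusted p = 0.0407) in WT mice. The WT difference ran from 0.53 to 0.84 with an array left out, and its call was not kept under every alternative. Itga4 and Itgb3 are also carried by blood cells, and neutrophil markers averaged 7.21 to 7.26 in KO ascending pools against 5.37 to 6.07 in WT ascending pools, and 6.76 to 7.38 in KO descending pools against 5.93 to 6.31 in WT descending pools. Their part in these rises was not tested.

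Among proteases that can cleave elastin or fibrillin, 3 of 10 were higher averaged over segments, 0 lower and 7 not called, where 6.21% of all genes were higher and 5.22% lower, with a median of 0.16 against 0.00 over all genes. Elane, neutrophil elastase, read 5.66 and 4.93 in KO ascending and 4.94 and 4.96 in KO descending pools, against 4.48 and 4.16 in WT ascending and 4.33 and 4.60 in WT descending pools, low signals on arrays whose dim filter stood at 4.11. It rose by 0.73 (SE 0.16, adjusted p = 0.0232). Ctss, cathepsin S, rose by 0.51 (SE 0.13, adjusted p = 0.037) and Mmp9, gelatinase B, by 0.42 (SE 0.11, adjusted p = 0.0413). These 3 are genes of neutrophils and macrophages, whose neutrophil markers moved the same way, and their source was not tested. Elane lost its call without WT ascending replicate 2, WT descending replicate 1 or either KO descending array. The call of Ctss held only without KO ascending replicate 2 and that of Mmp9 only without KO descending replicate 2, with adjusted p up to 0.0859, 0.111 and 0.127 for the 3 genes. Mmp2, gelatinase A of stromal cells, differed by -0.02 (adjusted p = 0.898). Ctsk, cathepsin K, was lower in ascending than descending aorta, at -0.61 (SE 0.08, adjusted p = 0.00527) averaged over genotypes.

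**Figure D5:**
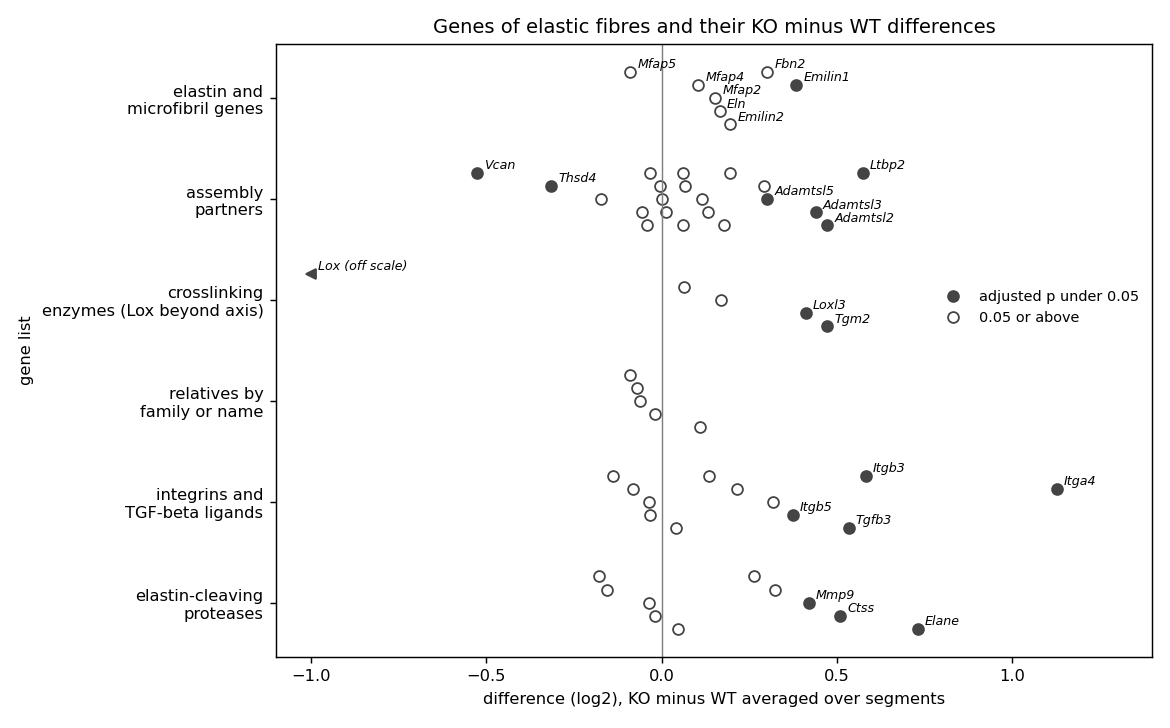
KO minus WT difference averaged over segments (x axis, log2) for each gene of 6 lists (y axis), with filled points at an adjusted p under 0.05; points are spread vertically within a list for legibility, and Lox, at -2.76, is drawn at the left edge as an arrowhead. The 7 genes of elastin and microfibrils lie between -0.09 and 0.38, inside the range of their assembly partners, which run from -0.53 to 0.57.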

How the data were processed

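Biotin-labelled RNA was hybridised to Affymetrix arrays, per the labels' protocols. The authors deposited log2 signals, 1 column per array, which per the submitters' processing notes came from RMA in Affymetrix Expression Console, with no version or option stated. Array medians were 5.11 to 5.19. The platform table gave 1 symbol to 23525 of 41345 probe sets, several to 1810 and none to 16010. The single-symbol sets covered 22184 genes, each taken from its brightest probe set, and 16638 genes remained after those under the 25th percentile of gene means (4.11 log2) were dropped.

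All 8 arrays entered 1 limma 3.58.1 fit (R 4.3.3) with a coefficient for each group; variances were moderated by eBayes (4 residual df, prior df of 4.51), with Benjamini-Hochberg adjustment across the 16638 genes. The 7 comparisons were KO minus WT in each segment, ascending minus descending in each genotype, the interaction, and each factor averaged over the other. A gene rose, fell or was called at an adjusted p under 0.05. Intervals are 95% and unadjusted. The p-values measure the spread between pools, and 2 arrays a group limit the precision.

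The genes and lists were chosen with earlier results of these data known. Named genes were the 7 measured ones, the 3 genes most correlated with each called one (predicted genes, clones and non-coding RNAs skipped), and up to 6 called genes of each pathway list by smallest p. Alternatives were 2 other dim filters, a trended robust prior, cyclic loess, median shifts, array weights, a replicate block, 2 other treatments of probe sets, fits on the compared arrays alone, and omission of each array, where a group left with 1 array borrowed its spread from the rest. The fit was run on simulated data. Calls there had a pass mark only for differences of 2 on the log2 scale, larger than those called in the 7 genes.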

Additional observations from a re-analysis of the deposited data

How the results depend on the processing

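Calls in this gene group depended on the processing, while directions of called genes did not. In the descending KO against WT comparison the count of called genes, 1 as reported, was 0 without the filter on dim genes, with arrays shifted to 1 median, with the replicate block (adjusted p = 0.0697 for Fbn2), with all probe sets tested separately, with only the arrays compared, and 0 to 0 with each array left out. Averaged over segments the count of 1 was 0 with all probe sets tested, 3 with a trended robust prior, 2 when genes under the 50th percentile were dropped, and 0 to 1 with an array left out. The 3 averaged calls of the trended robust prior were Eln, Fbn2 and Emilin1. That prior also called 1 gene in ascending KO against WT and 1 between the WT segments. The cause was not tested, except that filters change the number of genes adjusted for and leaving arrays out removes data. Of 46 calls of members and pathway genes, 10 were kept under every alternative. Of 47 member differences that were not called, 13 changed sign under some alternative. Over all genes, calls ran from 64 to 353 with an array left out and from 18 to 1014 under other settings in ascending KO against WT (455 as reported), from 20 to 226 and 13 to 919 in descending (380), and from 782 to 1317 and 346 to 2604 averaged (1902). Between segments they ran from 63 to 224 and 29 to 444 in WT mice (247), from 54 to 191 and 19 to 430 in KO mice (247), and from 390 to 542 and 254 to 951 averaged (677), and for the interaction from 0 to 11 and 0 to 1 (0). Deviations of like-numbered arrays correlated at -0.10 to 0.13 between groups. With 1 such deviation per group, these values cannot show whether like-numbered pools shared pups or a batch. The replicate block changed no other call of the 7 genes.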

Other observations

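Several other proteins of elastic fibre assembly did not pass in any of the 7 comparisons. Fbln5, fibulin-5, differed between KO and WT by 0.12 (adjusted p = 0.316) averaged over segments, and Fbln1 and Fbln2 by -0.03 (adjusted p = 0.834) and 0.06 (adjusted p = 0.637). The latent TGF-beta binding proteins other than Ltbp2 gave averaged differences of 0.18 for Ltbp1, 0.19 for Ltbp3 and -0.06 for Ltbp4 (adjusted p = 0.166, 0.118 and 0.689). Bgn, the small proteoglycan biglycan, differed by 0.07 (adjusted p = 0.577).

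Of 5 genes tested that share a family or only a name with those described, 0 were called between KO and WT averaged over segments. Among all genes tested 11.4% were. Between segments, averaged over genotypes, 1 of the 5 was called, where 4.07% of all genes were. Mmrn2, an EMILIN relative of endothelial cells, read 8.58 and 8.52 in KO ascending pools against 9.21 and 9.18 in KO descending pools, and 8.60 and 8.86 in WT ascending pools against 9.20 and 9.20 in WT descending pools. It was lower in ascending aorta, by -0.56 (SE 0.08, adjusted p = 0.00634) averaged over genotypes. Endothelial markers averaged 8.05 in both KO ascending pools against 8.36 to 8.44 in KO descending pools, and 8.42 to 8.59 in WT ascending pools against 8.70 to 8.79 in WT descending pools, and their part in the Mmrn2 values was not tested.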
